A study of Rattus norvegicus with 6 samples.

Results

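Hephaestin (Heph), the alpha-globin gene Hba-a2 and the erythroid 5-aminolevulinate synthase Alas2 were followed in 3 rat esophageal tumor cell lines, JB, Amy and JA, each set against a pool of normal esophageal cells. The members were all spots whose platform annotation gives 1 of these 3 symbols and no other. They came to 12 of 16128 spots, in 6 of 8064 clones: 2 spots of 1 clone for Heph, 8 spots of 4 clones for Hba-a2 and 2 spots of 1 clone for Alas2. The 3 genes were picked with their ratios on these arrays known, so their values against the pool and between lines are given as a description, with no test. Tests are given only for other genes of iron, heme and copper handling and for markers of cell types.

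Per the labels, JB, Amy and JA are lines of tumors that reflux induced in the rat esophagus, and the pool is an equal mixture of the lines Normal1 and Normal2. No genotype, strain, age or added treatment was given in the sources used here. Each line was hybridized with the pool on 2 two-colour cDNA arrays: its Cy3 array, on which the line carried Cy3 and the pool Cy5, and its Cy5 array, with the dyes exchanged. The pair shares its RNA, so n is 3 lines, and this small number sets the precision. The deposited values were log ratios, taken here as log2 of line over pool, so that a value of 1 is a 2-fold higher signal in the line. The log base was not stated, and the direction is likely rather than settled: the titles name the line before the pool, and turning every sign would only exchange higher and lower. Levels of a gene on their own were not used, so a very low ratio cannot be told from a bound set by a dim channel.

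Spots were grouped into 7180 features, which were 3158 named genes and 4022 clones without a single gene name. Over features, the 2 arrays of a line correlated at 0.815 in JB, 0.888 in Amy and 0.844 in JA, and the 2 duplicate spots of a clone at 0.907 to 0.949 within an array. The median of all features was -0.12 and was -0.0054 once each array was centred on its median. The source labels of the tumor lines name the esophagus and no cell type. Of 16 markers of squamous epithelium, 2 were on the array under the symbols searched. Galectin-7 (Lgals7) stood at -5.82 ± 1.01 and cystatin B (Cstb) at -0.68 ± 0.46 (SD, n = 3 lines).

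Iron leaves a cell through ferroportin in its ferrous form and has to be oxidized before transferrin can carry it. Hephaestin is a membrane-bound, copper-dependent ferroxidase that does this step, best known in the enterocytes of the small intestine, and ceruloplasmin is its relative in blood plasma. Heme is built from glycine and succinyl-CoA in a pathway whose rate-limiting enzyme is 5-aminolevulinate synthase. Alas1 serves most tissues and Alas2 serves red cell precursors, where heme joins alpha- and beta-globin chains to form hemoglobin.

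Heph was the member that separated the lines: it was lower than the pool in JB and higher in Amy and JA. Its 2 spots averaged -1.80 on the Cy3 array and -1.94 on the Cy5 array of JB. In Amy the Cy3 and Cy5 arrays stood at 2.10 and 1.47, and in JA at 1.68 and 1.77. The 2 arrays of JB and the 4 arrays of the other lines did not overlap, and the duplicate spots differed by at most 0.13 on any array.

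The line means of Heph were -1.87 in JB, 1.79 in Amy and 1.72 in JA, which are a 3.65-fold lower signal in JB and 3.45-fold and 3.30-fold higher signals in Amy and JA. JB minus Amy came to -3.90 between Cy3 arrays and -3.41 between Cy5 arrays. JB minus JA came to -3.47 and -3.70. As the mean of both orientations, the signal in JB was 12.6-fold lower than in Amy and 12.0-fold lower than in JA. Amy minus JA was 0.42 between Cy3 arrays and -0.29 between Cy5 arrays, so the order of Amy and JA turned with the dyes. The mean over lines, 0.55 ± 2.09 (SD, n = 3 lines), describes none of them.

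JB was lower than both other lines by at least 1 in both dye orientations for 50 of 7180 features (0.696%), and Heph was among them. The other such shares were 1.3% for JB higher, 0.195% for Amy lower, 0.306% for Amy higher, 0.292% for JA lower and 0.0696% for JA higher, none of which held a member. The difference JB minus the mean of Amy and JA was -3.62 for Heph, the second lowest of all features. Signs like those of Heph, below 0 on both JB arrays and above 0 on the other 4, were found for 80 features (1.11%), against 79 (1.1%) with Amy and 37 (0.515%) with JA as the line below 0. Of those 80 features, Heph alone was at least 2-fold from the pool on all 6 arrays. In the opposite pattern, with JB above the pool and the other lines below it, 3 features reached that size, namely the lipoprotein lipase Lpl, the basement membrane protein nidogen-2 (Nid2) and 1 clone without a gene name. These values chose the gene and are no test of it. Heph rests on 1 clone, so no other clone on the array checks its identity.

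**Figure D1:**
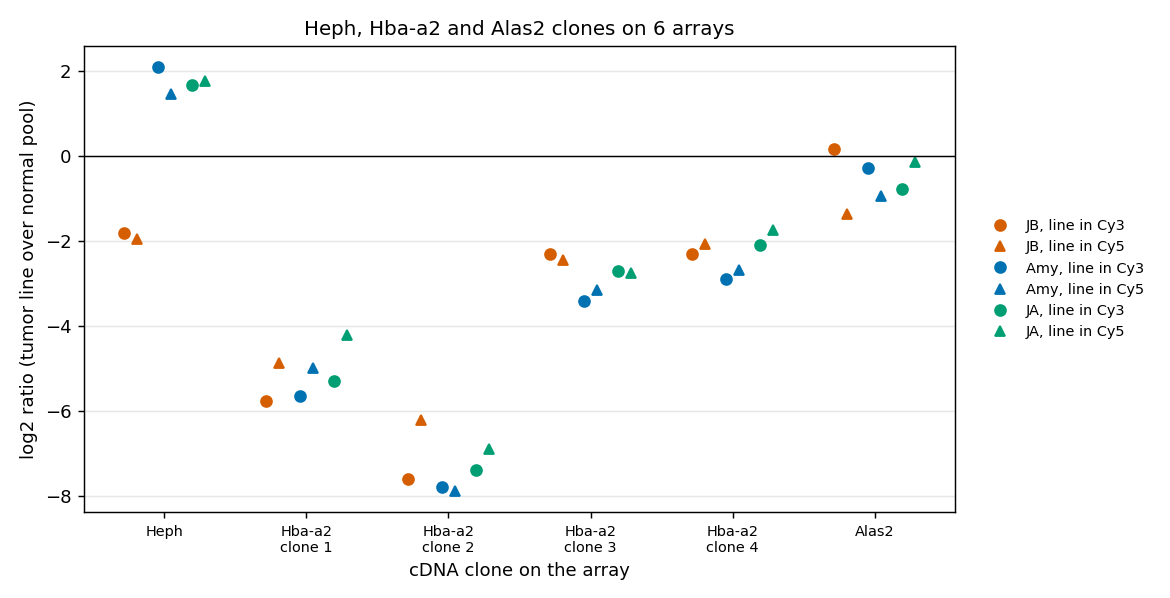
The log2 ratio of line over normal pool is shown for each of the 6 clones of Heph, Hba-a2 and Alas2, as the mean of 2 duplicate spots; colours mark the lines, circles the Cy3 arrays and triangles the Cy5 arrays. Heph lies near -1.87 in JB and above 1.4 in Amy and JA, every Hba-a2 clone lies below 0 on all 6 arrays, and Alas2 stays between -1.36 and 0.16.

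The genes whose 6 array values lay nearest to those of Heph were Rufy1, an endosome protein, with a root mean square difference of 0.65, the transcription factor Irf8 at 0.96, the vesicle fusion protein Vamp8 at 1.05 and the small GTPase Rap2c at 1.07. Rufy1 stood at -0.88 in JB, 1.78 in Amy and 1.28 in JA. The other 3 were also below 0 in JB, between -0.57 and -0.21, and above 0.9 in the other lines. Likeness was taken over 6 arrays of 3 lines, among 3157 other named genes.

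Among the 36 measured genes of the iron, heme and copper lists, the one other gene that set a line apart by at least 1 from both others in both orientations was Mt2A. It encodes a metallothionein, a small protein that binds zinc and copper. Mt2A stood at 0.17 and 0.85 in JB, 2.18 and 2.74 in Amy, and 2.97 and 3.31 in JA (Cy3 array, Cy5 array). JB minus Amy was -1.95 and JB minus JA was -2.63 as the mean of the orientations. JB was thus lower than the other lines in Heph and in Mt2A, but Heph crossed the level of the pool in JB and Mt2A did not. Over all features, 2.77% had some line apart in this way.

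The 250 bases before a start site of each gene, from RefSeq on GRCr8, are shown because these are the measured genes of the lists that set JB apart. Capitals mark matches on either strand to 5 motifs. The metal response element core was searched as TGCACNC or as its variant TGCGCNC. The GATA box was searched as TGATAA, with TGATAG, with AGATAA and with AGATAG as its variants. The other 3 were the CACCC box, the CCAAT box and the TATA box spelled TATAAA. No matches overlap in the printed windows. The Heph window, on the + strand at chrX:65308806-65309055, lies inside the annotated span of the gene, before an internal start. The Mt2A window is on the - strand at chr19:10838709-10838958.
Heph: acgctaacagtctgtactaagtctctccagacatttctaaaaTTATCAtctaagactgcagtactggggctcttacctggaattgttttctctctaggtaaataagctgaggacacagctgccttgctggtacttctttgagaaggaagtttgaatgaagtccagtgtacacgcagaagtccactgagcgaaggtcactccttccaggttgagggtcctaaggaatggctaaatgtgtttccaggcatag
Mt2A: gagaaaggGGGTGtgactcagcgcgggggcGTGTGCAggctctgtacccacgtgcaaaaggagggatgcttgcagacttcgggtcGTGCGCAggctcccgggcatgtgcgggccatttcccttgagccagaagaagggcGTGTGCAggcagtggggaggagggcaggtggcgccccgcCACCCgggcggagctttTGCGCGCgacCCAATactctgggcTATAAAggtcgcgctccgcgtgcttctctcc
The Mt2A window held 4 matches to the metal response element core and the Heph window held none. The Heph window precedes an internal start, so its count does not describe sequence before any other start of the gene. Of all 33469 windows of this length, 20.6% held at least 1 such match and 0.266% at least 4. The Heph window held 1 GATA box, which 27.0% of windows hold. A match is a run of letters in the window and not a measured binding site.

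**Figure D2:**
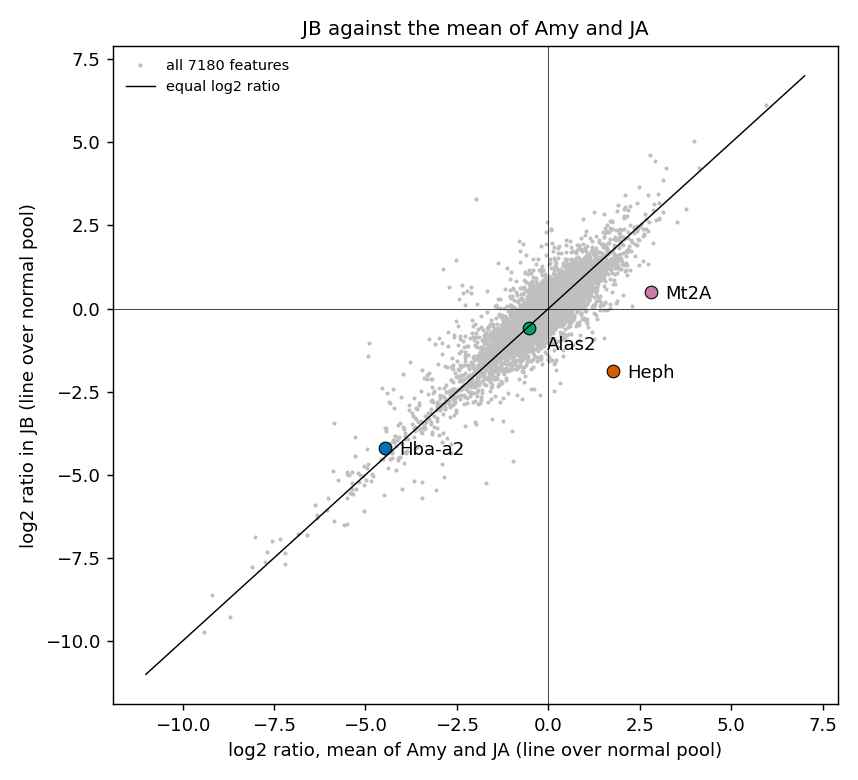
Each grey point is 1 of 7180 features, with the mean log2 ratio of Amy and JA on the x axis and that of JB on the y axis, and the line marks equal ratios. Heph lies below the line to the right of 0 at -1.87 in JB, Mt2A lies to the right of the line at 0.51 in JB, and Hba-a2 and Alas2 lie close to the line.

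Hba-a2 encodes an alpha chain of adult hemoglobin, and all 4 of its clones were lower than the pool in all 3 lines. As a mean over clones, Hba-a2 stood at -4.48 and -3.89 in JB, -4.93 and -4.66 in Amy, and -4.37 and -3.89 in JA (Cy3 array, Cy5 array). In this mean, both Amy arrays were lower than the 4 arrays of JB and JA, which overlapped. The share of all features with such a gap was not counted. As line means, 19.3% of features had a JB minus Amy difference as far from 0 as that of Hba-a2. The mean over lines was -4.37 ± 0.37 (SD, n = 3 lines), a 20.7-fold lower signal, and Hba-a2 was the 62nd lowest of 7180 features. Values at least 1 below 0 on all 6 arrays were seen for 583 features (8.12%), Hba-a2 among them, and values at least 1 above 0 for 203 (2.83%), with no member among them. Nothing is read from these counts, since the same ratios chose the genes.

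The clones of Hba-a2 differed from each other far more than the lines did. Clone 2 was the lowest, with arrays between -7.88 and -6.20 and a mean of -7.29 ± 0.49, a 156-fold lower signal. Clone 1 lay between -5.76 and -4.20 with a mean of -5.12 ± 0.33, or 34.8-fold. Clone 3 lay between -3.41 and -2.30 with a mean of -2.79 ± 0.46, or 6.90-fold. Clone 4 lay between -2.89 and -1.73 with a mean of -2.29 ± 0.44, or 4.89-fold. Clones 1 and 2 shared no array value with clones 3 and 4, and all errors are SD over the 3 lines.

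All 4 clones carry the same accession in the platform annotation, yet their means spanned 4.996 on the log2 scale. Of 655 genes with several clones, 8 had a range that large or larger (1.22%), and the median range was 0.53. These genes were not matched to Hba-a2 by number of clones, and a range can grow with that number. The cause of the spread between clones was not tested.

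Across lines, the clones of Hba-a2 kept 1 common order of Amy and JA. Amy minus JA was negative in each of the 4 clones in both dye orientations, from -0.35 to -0.996, with a mean over clones of -0.67. Of all 7180 features, 11.3% had an Amy minus JA difference at least as far from 0. JB minus JA was -0.57, 0.24, 0.36 and -0.27 in clones 1 to 4, with no common sign. JB minus Amy was -0.005, 0.94, 0.91 and 0.60 in clones 1 to 4. In clone 1 it was -0.13 between Cy3 arrays and 0.12 between Cy5 arrays, so Amy was not the lowest line in every clone. Clones of 1 gene share their target and their arrays and are not replicates of a line, so the difference between Amy and JA has no replicate check. The dyes also entered: the Cy3 array minus the Cy5 array was -0.60 in JB, -0.27 in Amy and -0.48 in JA for the mean over clones. In these lines 25.9%, 44.6% and 32.5% of features differed by as much or more. The difference was positive for clone 3 in JB (0.13) and JA (0.04) and for clone 2 in Amy (0.09), and negative otherwise.

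Hba-a2 has a near-identical neighbour, Hba-a1, and a cDNA spot may capture transcripts of both. Their RefSeq windows of 250 bases before the start differ at 9 positions and are 96.4% identical, and they are printed to show how close the copies are. Both are on the - strand of GRCr8, Hba-a2 at chr10:15829139-15829388 and Hba-a1 at chr10:15842581-15842830. The capitals mark the same boxes as above.
Hba-a2: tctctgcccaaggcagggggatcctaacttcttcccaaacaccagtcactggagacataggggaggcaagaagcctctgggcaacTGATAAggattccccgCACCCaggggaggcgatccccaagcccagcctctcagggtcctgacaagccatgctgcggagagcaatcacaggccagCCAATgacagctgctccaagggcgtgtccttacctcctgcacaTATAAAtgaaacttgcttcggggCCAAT
Hba-a1: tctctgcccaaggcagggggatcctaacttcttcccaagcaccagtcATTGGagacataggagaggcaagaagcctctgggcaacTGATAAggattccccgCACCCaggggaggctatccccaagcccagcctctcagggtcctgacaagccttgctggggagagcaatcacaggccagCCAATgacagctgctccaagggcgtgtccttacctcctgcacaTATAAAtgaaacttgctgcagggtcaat
Each window held all of the 5 motifs but the metal response element core, and 0.523% of all windows held those 4 boxes together. Singly, 49.2% of windows held a CACCC box, 34.0% a CCAAT box and 12.9% a TATA box.

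A further 6 spots, in 3 clones, were annotated to Hba-a2 and Hba-a1 together and were not counted as members. They spread even more widely than the Hba-a2 clones. The first stood above the pool on all 6 arrays, from 0.46 to 1.27, with a mean of 0.91 ± 0.29 (SD, n = 3 lines). The second lay between -6.35 and -5.81 with a mean of -6.05 ± 0.04, although its duplicate spots differed by up to 1.36, and the third between -3.35 and -3.14 with a mean of -3.29 ± 0.04. Of the 7 alpha-globin clones, 6 were thus lower than the pool on all arrays and 1 was higher on all arrays. The 3 shared clones carry 1 accession and spanned 6.96. Of 639 accessions with several clones, again not matched by number of clones, 2 had a range that large or larger. The amount by which alpha-globin was lower therefore depends on the clone.

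**Figure D3:**
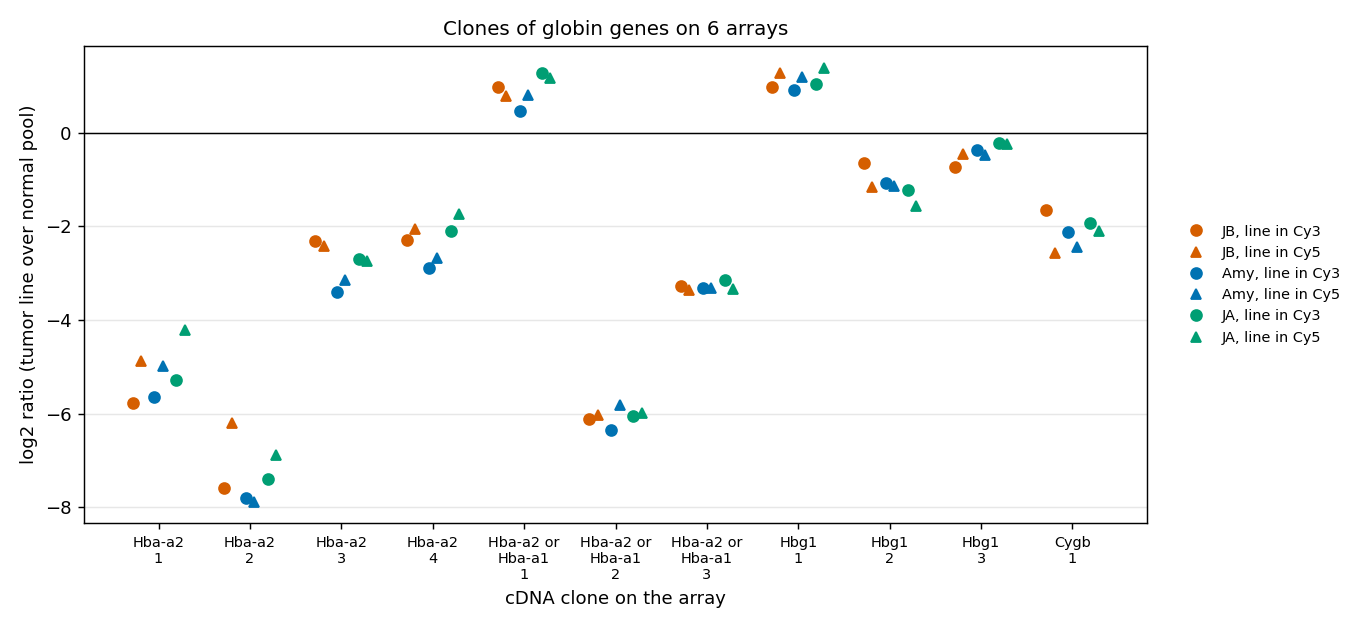
Points give the log2 ratio of line over normal pool on each array for the 4 Hba-a2 clones, the 3 clones annotated to Hba-a2 or Hba-a1, the 3 Hbg1 clones and the Cygb clone, with colours for lines and symbols for the dye of the line. Clones with 1 annotation differ by up to 6.96 while no clone spans more than 2 between its 6 arrays.

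Of the other globins, 2 were measured and neither was a member. Cygb, a heme protein of connective tissue cells that is no part of hemoglobin, fell in all 3 lines, to -2.12 in JB, -2.28 in Amy and -2.01 in JA, with a mean of -2.14 ± 0.14 (adjusted p = 2.86e-04, limma with Benjamini-Hochberg over all features). Hbg1 belongs to the beta-globin cluster and encodes a beta-like chain. Its mean was -0.14 ± 0.02 (adjusted p = 0.334), but that value hides opposite clones at 1.13, -1.13 and -0.41. With the first clone alone, Hbg1 would be called higher (adjusted p = 0.00166), and without moderation of the variances it would be called lower (adjusted p = 0.0437).

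The genes nearest to the mean of Hba-a2 over 6 arrays were the collagen lysyl hydroxylase Plod2, with a root mean square difference of 0.22 and a mean of -4.26, the water channel Aqp1 at 0.25 and -4.52, Bpifa5 at 0.26 and -4.25, and the homeodomain-only protein Hopx at 0.27 and -4.16. This likeness rests on a mean over clones that disagree.

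Of 28 genes that mark red cells and their precursors, 6 were measured. Of these, 3 rose, 1 fell and 2 stayed short of the threshold, where 20.7% of all features rose and 32.8% fell. With 6 genes, these counts are given as a description beside those shares. Their median was 0.22 in JB, 0.28 in Amy and 0.70 in JA. The red cell enzyme Bpgm stood at 2.05 ± 0.23 (adjusted p = 4.89e-04), the Rh-associated glycoprotein Rhag at 0.94 ± 0.20 (adjusted p = 0.00382) and the anion exchanger Slc4a1 at 0.60 ± 0.21 (adjusted p = 0.0163), all higher. Catalase (Cat), which many tissues express, fell to -1.14 ± 0.09 (adjusted p = 0.00157), and the erythroid transcription factor Tal1 stood at -0.11 ± 0.18 (adjusted p = 0.512).

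Markers of other cell types were set against the same shares of all features, 32.8% called lower and 20.7% called higher. Of 14 fibroblast markers 9 were measured, with medians of -4.38 in JB, -3.52 in Amy and -3.83 in JA. Of these, 8 fell, from Fbn1 at -1.73 ± 0.85 down to the collagen chain Col1a2 at -8.90 ± 0.46 and decorin (Dcn) at -9.00 ± 0.53, and Col6a2 rose to 1.06 ± 0.31. Of 13 macrophage markers 5 were measured, with medians of -2.14 in JB, -2.55 in Amy and -2.75 in JA. Of these, 3 fell, Cd4 to -4.06 ± 0.41 and the receptor Csf1r to -3.57 ± 0.11 among them, the adaptor Tyrobp rose to 0.67 ± 0.14, and Mrc1 stood at 0.39 ± 0.19 (adjusted p = 0.0519). The third that fell, Lyz2, had a mean of -2.48 ± 0.31 over 2 clones at -4.55 and -0.41. Of 3 enterocyte markers, 2 fell, apolipoprotein Apoa4 to -1.32 ± 0.34 and the aminopeptidase Anpep to -1.07 ± 0.35, and Tff3 stood at -0.17 ± 0.91 (adjusted p = 0.707). The 3 clones of Anpep ranged from -2.84 to 0.34, with opposite signs. The counts of 5 macrophage and 3 enterocyte genes are too small to be read against the shares of all features. None of 10 platelet and granulocyte markers was measured. In RNA from whole cultures, fewer cells of a type and less RNA per cell cannot be told apart, and the part of other cell types in the Hba-a2 ratios was not tested.

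Alas2, the erythroid enzyme of the first step of heme synthesis, gave no steady order of the lines. Its clone stood at 0.16 and -1.36 in JB, -0.28 and -0.93 in Amy, and -0.77 and -0.13 in JA (Cy3 array, Cy5 array). The lines overlapped, and the value in JB changed sign between its arrays. On the Cy3 array of JB the duplicate spots also differed in sign, at 0.49 and -0.17. The line means were -0.60 in JB, -0.61 in Amy and -0.45 in JA, and their SD of 0.09 is far smaller than the SD between the 2 arrays of a line, which was 1.07 in JB, 0.46 in Amy and 0.45 in JA. The small SD over lines therefore does not describe the error of Alas2. In JB the dye-swapped arrays differed by 1.52, and 4.64% of features differed by as much or more in that line. The mean of the 3 Cy3 arrays was -0.30 and that of the 3 Cy5 arrays -0.81.

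Nearest to Alas2 over the 6 arrays were tenascin-R (Tnr) at a root mean square difference of 0.34, Tm4sf20 at 0.35, the quinone reductase Cryz at 0.36 and the transporter Slc16a6 at 0.36. For each of these, at least 4 other features were as near or nearer.

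The housekeeping enzyme of the same step, Alas1, was lower than the pool in every line. It stood at -2.13 and -2.49 in JB, -1.70 and -1.72 in Amy, and -2.30 and -2.49 in JA (Cy3 array, Cy5 array), with a mean of -2.14 ± 0.37 (SD, n = 3 lines; adjusted p = 8.39e-04), a 4.40-fold lower signal. Its 2 clones had means of -2.15 and -2.13. All 6 arrays lay below the lowest Alas2 array, which was -1.36. As means over lines, both measured enzymes of later steps also fell. The porphobilinogen synthase Alad stood at -0.68 ± 0.51 (adjusted p = 0.0459) and the uroporphyrinogen decarboxylase Urod at -0.88 ± 0.52 (adjusted p = 0.0214). Alad was near the pool in JB, at -0.09, and lower in Amy (-1.03) and JA (-0.91). Urod changed sign with the dye in JB (-1.44 and 0.60) and in JA (-2.19 and 0.61). In Amy it was below the pool on both arrays (-1.50 and -1.38).

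All 3 measured heme synthesis genes other than Alas2 were thus called lower, against 32.8% of all features called lower and 20.7% called higher. A count of 3 genes is too small to be read against those shares. Alad did not pass without Amy (adjusted p = 0.197), without JA (0.215), without the JB Cy5 array (0.0898), the Amy Cy3 array (0.0532) or the JA Cy3 array (0.0600), on the Cy3 arrays alone (0.0702) or with centred arrays (0.0710). Urod did not pass without Amy (0.0662) or JA (0.100), without the JB or JA Cy3 array (0.286 and 0.408), on the Cy5 arrays alone, where it stood at -0.06 (0.923), or with dye orientation as a replicate block (0.157). With a spread given to the pool, Alad (0.192) and Urod (0.115) did not pass, and without moderation of the variances none of the 3 genes passed, with adjusted p-values of 0.0547 for Alas1, 0.225 for Alad and 0.169 for Urod.

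Across the 9 role lists, 36 of 127 listed genes were measured besides the members; 18 fell, 4 rose and 14 missed the threshold, and the median over the 36 was -0.45. Of all 7180 features, 53.5% passed the same test in either direction, 32.8% as lower and 20.7% as higher, and the median was -0.12. The counts of the single lists are too small to be read against these shares.

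Ferroportin (Slc40a1), the iron exporter that hephaestin serves, was lower than the pool in all 3 lines. It stood at -1.69 and -1.69 in JB, -2.06 and -2.18 in Amy, and -2.32 and -2.30 in JA, with a mean of -2.04 ± 0.32 (adjusted p = 7.41e-04). With unmoderated variances the call of Slc40a1 was lost (adjusted p = 0.0513). In Amy and JA ferroportin was therefore low while Heph was above the pool, and in JB both were below it. The amyloid precursor App, named in some work as an iron export partner, stood at -0.39 ± 0.36 (adjusted p = 0.107). Ceruloplasmin (Cp) and the hephaestin-like gene Hephl1 were on the list but were not measured under these symbols.

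Of 6 measured iron uptake genes, 4 fell and none rose. The ferritin receptor Scara5 stood at -1.75 ± 0.10 (adjusted p = 4.68e-04), the lipocalin receptor Slc22a17 at -1.05 ± 0.10 (adjusted p = 0.00198), the metal transporter Slc39a8 at -0.97 ± 0.29 (adjusted p = 0.00534) and the ferrous iron transporter Slc11a2 at -0.69 ± 0.03 (adjusted p = 0.00570). The 2 clones of Slc11a2 differed, at -1.49 and 0.11. The ferritin heavy chain Fth1, the measured storage gene, stood at 0.08 ± 0.17 (adjusted p = 0.618) over 3 clones between -0.05 and 0.16.

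Of 4 genes that sense iron or steer hepcidin, 3 fell. Hfe, mutated in hereditary hemochromatosis, stood at -2.14 ± 0.67 (adjusted p = 0.00269), with arrays from -4.21 to -0.79. The hepcidin inducers Bmp6 and Bmp2 stood at -1.31 ± 0.53 (adjusted p = 0.00648) and -0.46 ± 0.06 (adjusted p = 0.0207). The 2 clones of Bmp6 disagreed, at -3.85 and 1.23. Bmp6 did not pass without JA (adjusted p = 0.0596), and Bmp2 did not pass without Amy (0.0871), without JA (0.103), without the JA Cy3 array (0.0646), on the Cy5 arrays alone (0.0643) or with its first clone alone (0.130).

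Of 7 genes of iron-sulfur cluster assembly, 2 rose and 1 fell. The co-chaperone Hscb stood at 0.80 ± 0.18 (adjusted p = 0.00566) and the scaffold protein Nubp2 at 0.66 ± 0.31 (adjusted p = 0.0187), while ferredoxin Fdx1 stood at -0.50 ± 0.14 (adjusted p = 0.0210). Nubp2 did not pass without JA (adjusted p = 0.0995), without the Amy Cy5 array (0.0594) or on the Cy3 arrays alone (0.0991), and Fdx1 did not pass without JB (0.0523), Amy (0.100) or JA (0.0635).

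Of 4 genes of heme breakdown and transport, the heme-binding membrane proteins Pgrmc1 and Pgrmc2 fell, to -1.10 ± 0.66 (adjusted p = 0.0195) and -0.43 ± 0.08 (adjusted p = 0.0273). Pgrmc1 did not pass without Amy (adjusted p = 0.0561) or JA (0.0570). Pgrmc2 did not pass without Amy (0.116), without JA (0.118), without the JB or JA Cy5 array (0.0542 and 0.0532), on the Cy3 arrays alone (0.0728) or with centred arrays (0.0625), and its 3 clones ranged from -0.98 to 0.14.

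Of 7 copper genes, which are of interest because hephaestin needs copper, 2 rose and 3 fell. Mt2A had a mean of 2.04 ± 1.36 (adjusted p = 0.0217), which did not pass without Amy (0.112) or JA (0.118), and the cytosolic dismutase Sod1 stood at 0.72 ± 0.20 (adjusted p = 0.00842), which did not pass without Amy (0.0518) or JA (0.0636). The secreted copper enzymes Sod3 and Loxl1 were lower, at -3.65 ± 0.14 (adjusted p = 6.75e-05) and -3.19 ± 0.35 (adjusted p = 2.39e-04). The copper chaperone Cox17 stood at -0.67 ± 0.31 (adjusted p = 0.0184) and did not pass without Amy (0.0930) or JA (0.109).

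Calls of the lists were also lost under 2 settings that change the error rather than the means. Without moderation of the variances, adjusted p-values missed the threshold for Slc39a8 (0.0835), Hfe (0.0858), Bmp6 (0.111), Hscb (0.0665), Nubp2 (0.128) and Fdx1 (0.0781). They also missed it for Pgrmc1 (0.174), Pgrmc2 (0.0584), Mt2A (0.197), Sod1 (0.0774) and Cox17 (0.129). With a spread given to the pool, they missed it for Bmp2 (0.112), Nubp2 (0.105), Fdx1 (0.113), Pgrmc1 (0.108), Pgrmc2 (0.136), Mt2A (0.116), Sod1 (0.0575) and Cox17 (0.103). Scara5, Slc22a17, Slc11a2, Cygb, Sod3 and Loxl1 passed in all 18 settings. For Slc11a2, the first-clone setting took the clone at -1.49, and no setting used its clone at 0.11 alone.

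**Figure D4:**
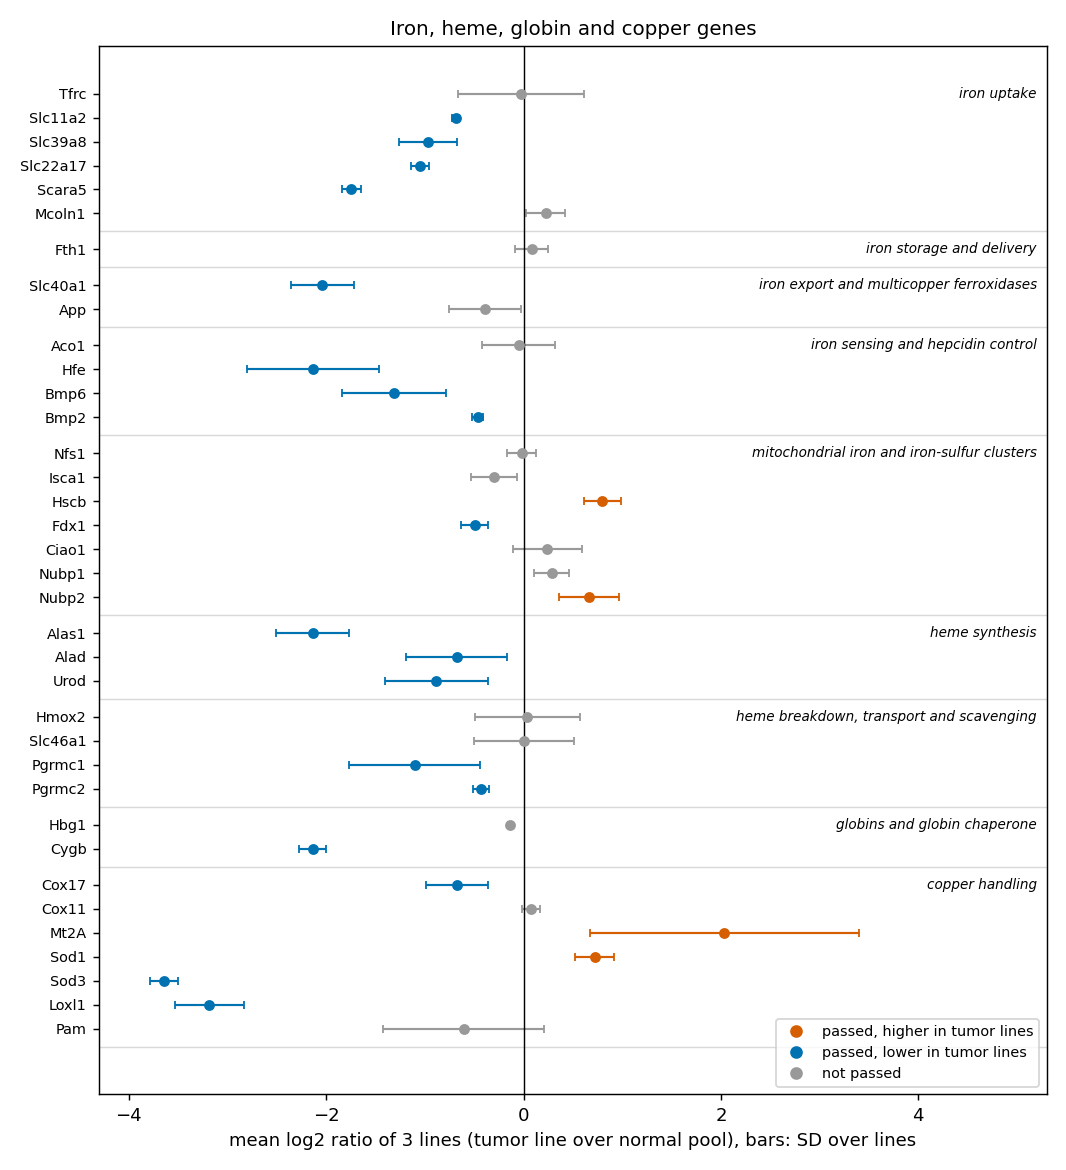
Points are the mean log2 ratio of the 3 lines over the normal pool for 36 genes in 9 role lists, with bars for the SD over lines; blue and orange mark genes that passed as lower and higher (limma adjusted p under 0.05) and grey those that did not. Most called genes lie to the left of 0, with 18 lower and 4 higher. Of all features, 32.8% were called lower and 20.7% higher.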

How the data were processed

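The deposited values were log2 ratios as used here, 1 per spot and array on 6 two-colour cDNA arrays. The sources used here do not give the log base, the scanner or how background, dyes and dim spots were treated. The 2 arrays of a line had positive correlations, so no sign was changed. Gene names came from the platform annotation, in which 8084 spots carry 1 symbol, 40 several and 8004 none. All 3 member genes matched RefSeq genes by identifier.

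The members and gene lists were chosen with earlier results of these data known. Features were means over the spots of a symbol, or over a clone without a single symbol. The arrays of a line were averaged, and the mean of 3 lines was tested against 0 with limma 3.58.1 in R 4.3.3 (two-sided, Benjamini-Hochberg over 7180 features, threshold 0.05). The pool is 1 control and its spread is left out; the p-values cover only how the lines differ, which may be technical. No low-value filter was applied. Alternatives were centred or quantile-normalized arrays, 1 dye orientation, the first clone of a gene, a replicate block, a spread for the pool, unmoderated or robustly moderated variances, an adjusted p under 0.01, a size of 0.5 between lines, and each line or array left out.

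The replicate number is the dye orientation per the labels; the dye differences of the lines correlated at 0.526 to 0.613, so the numbers pair the arrays. Named were the members, called genes of each role list (at most 6), all genes of lists with few measured, relatives of the members, the ends of marker lists and the 4 genes most like each member. Lpl, Nid2 and Slc4a1 were added after their values were seen. The limma step was tested on simulated data. Figures used matplotlib 3.10.9.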

Additional observations from a re-analysis of the deposited data

Results flagged for a closer look

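Heph was picked out because both arrays of JB lay below the pool and all arrays of Amy and JA above it: the line means were -1.87 in JB, 1.79 in Amy and 1.72 in JA. The difference between the lines was not tested, since each line is 1 sample.

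A looser pattern, both arrays of a line below the pool and both arrays of another above it, appeared in 6 other role list genes. It also appeared in 3 cell type markers. These differences are untested and have smaller values, and the genes are named here after their values were seen. The share of all features with this pattern was not counted, so nothing is read from the number of genes that show it. In Tfrc, Nfs1, Hmox2, Gypc, Tal1 and Tff3 the remaining line changed sign between its arrays. The transferrin receptor Tfrc stood at -0.64 in Amy and 0.64 in JA. The copper-dependent amidating enzyme Pam stood at -1.41 in JB and -0.62 in JA, and at 0.22 in Amy. The heme oxygenase Hmox2 stood at -0.51 in JA and 0.56 in JB, and the folate and heme carrier Slc46a1 at -0.57 in JA, against 0.26 in JB and 0.33 in Amy. Of the iron-sulfur genes, Nfs1 stood at -0.13 in Amy and 0.15 in JB, and Ciao1 at -0.064 in Amy, 0.62 in JB and 0.16 in JA. Of the markers, the glycophorin Gypc stood at -0.22 in Amy and 1.03 in JA, the transcription factor Tal1 at -0.28 in Amy and 0.078 in JB, and the trefoil factor Tff3 at -0.90 in Amy and 0.86 in JB.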

How the results depend on the processing

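Heph kept its sign in every line under centring, quantile normalization and each dye orientation; in JA it moved to 1.85 with centred arrays and 1.60 with quantile normalization, against an SD of 0.06 between its arrays. Its mean over lines ranged from -0.07 to 1.75 when a line or array was left out. With its first clone alone, Hba-a2 stood at -5.31 in JB, -5.31 in Amy, -4.74 in JA and -5.12 as a mean; leaving out a line or array gave means from -4.49 to -4.16. The Alas2 mean was -0.44 with centred arrays, -0.30 on Cy3 arrays, -0.81 on Cy5 arrays, and between -0.80 and -0.30 when a line or array was left out. Among the 36 list genes, 1 higher and 11 lower passed with a spread given to the pool. Without moderation of the variances 0 and 8 passed, and at an adjusted p under 0.01 it was 2 and 11. Over all features these settings gave 667 and 1303, 300 and 740, and 796 and 1494. In the main moderated limma test, 4306 features had an unadjusted p under 0.05. Leaving out a line or array gave 1 to 4 higher and 10 to 18 lower list genes, and 709 to 1448 and 1367 to 2301 features; the lowest counts were without JA, and without Amy 2 list genes were higher. With dye orientation as a replicate block, 4 list genes were higher and 17 lower, and the block moved 1 list gene, Urod, out of the calls. That fit took the 6 arrays singly, with line as a random block, so its p-values do not rest on the line means alone. At a size of 0.5 in place of 1, 6 list genes set a line apart. With the first clone in place of the mean, Pgrmc2 stood at 0.14 and Hbg1 at 1.13. Of 22 called list genes, 6 passed in all 18 settings. The cause of these changes was not tested. Spot signals over background were not used.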
